A study of Mus musculus with 3 samples.

Results

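A set of 9 host genes of abundant circular RNAs (circRNAs) were followed in apoptotic bodies (ABs) of the osteoclast lineage, and the reads of their circular RNA were set beside the reads of their linear RNA. The 9 hosts are Pvt1, Tcf20, Uck2, Tulp4, Asph, Tns3, Bbs9, Runx1 and Dennd1b, of 1010 host genes named in the deposited circRNA table. They hold 30 of its 1372 back-splice junctions. The hosts were chosen from the junction reads themselves, Pvt1, Tcf20, Uck2, Tulp4, Asph and Tns3 for a junction among those with the most reads in a library, and Bbs9, Runx1 and Dennd1b for a difference between libraries. Their junction reads, and every ratio and interval that uses them, are therefore given as a description. Bbs9, with 74 reads on its junction, Dennd1b, with 27 on its leading one, and Runx1, with 30, had the fewest reads of the leading junctions, and the junctions outside the 9 hosts with the most reads came from Gm21992 (140 over the 3 libraries), Nfix (118) and Usp3 (74).

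1 library each was sequenced of BMM-, pOC- and mOC-ABs, the ABs of macrophages (BMMs), of preosteoclasts and of mature osteoclasts. The cells came from the bone marrow of C57BL/6 mice aged 11 weeks, and BMMs were grown from floating marrow cells with 50 ng/ml M-CSF for 72 h. Preosteoclasts received 30 ng/ml M-CSF with 100 ng/ml RANKL for 24 h, and mature osteoclasts received the same for 72 h or more. Alendronate at 500 μM for 12 h induced the ABs in every group per the labels, while the study's methods name staurosporine, a longer RANKL treatment for mOCs and other times and doses of M-CSF. The sample titles give the cells, whereas the description of the series gives ABs, and each library is treated here as one of ABs. How many mice were pooled is not given in the sources used here. With 1 library per group there was no spread between replicates, so no test was run, and every interval below is an exact 95% interval that covers counting error only. The comparisons are named G1 (pOC-ABs over BMM-ABs), G2 (mOC-ABs over BMM-ABs) and G3 (mOC-ABs over pOC-ABs).

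A circRNA forms when the spliceosome joins the end of an exon (the donor) to the start of an exon that lies upstream in the same transcript (the acceptor). The product is a closed ring without a cap or a poly-A tail, it resists exonucleases, and reads that cross the back-splice junction tell it from the linear RNA of the same gene. Osteoclasts are bone-resorbing cells that macrophages form under M-CSF and RANKL by fusion, and ABs are membrane-bound vesicles shed by a dying cell.

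The leading junctions, the ones with the most reads in each host, are shown because the circular counts rest on them. Each line gives the last 15 bases before the junction in lower case and the first 15 bases after it in capitals, 5′ to 3′ on the strand of the gene, read from GENCODE M21 transcripts (GRCm38). For Tcf20 the second junction is shown too, since it has nearly as many reads and shares the capitals with the first.
Pvt1 (chr15:62107148-62107465, plus strand): agctccctctaaaatGTCTGATTTTCTTAA
Tcf20 (chr15:82851513-82857284, minus strand): atcgccagagagatgGAGGGCTGCTGGCCT
Tcf20, second junction (chr15:82825231-82857284, minus strand): gtgccattgacgcagGAGGGCTGCTGGCCT
Uck2 (chr1:167234692-167237648, minus strand): gtctgtctcgccgagTCTTCCGTTTGTGCT
Tulp4 (chr17:6137211-6139156, plus strand): ggccacaacagtgagAGTTGTAAGAGTCCA
Asph (chr4:9635901-9639347, minus strand): ccaaagttttattagAGGCAAAGCACGGAG
Tns3 (chr11:8478225-8479665, minus strand): tgcacaaaggtcgagGTGATGACCCCATTG
Bbs9 (chr9:22887581-22887996, plus strand): agctcatctctggagGTGGCTGTACTCCAA
Runx1 (chr16:92668708-92695737, minus strand): cccgagaaccccgaaATGCCAGCACGAGCC
Dennd1b (chr1:139040000-139062971, plus strand): agcaaattaagcactGAAGTTCTGCAGAGC

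Longer stretches are given for the circle of Pvt1, a lincRNA whose junction outnumbered its linear reads, and for that of Asph, the junction with the most reads of all. For Pvt1 these are the last 100 bases of exon 2 in lower case, followed across the junction by its first 100 bases in capitals. For Asph it is the whole circle of 219 bases, exons 2 and 3 as spliced, with the first 15 bases after the junction in capitals.
Pvt1, across the junction: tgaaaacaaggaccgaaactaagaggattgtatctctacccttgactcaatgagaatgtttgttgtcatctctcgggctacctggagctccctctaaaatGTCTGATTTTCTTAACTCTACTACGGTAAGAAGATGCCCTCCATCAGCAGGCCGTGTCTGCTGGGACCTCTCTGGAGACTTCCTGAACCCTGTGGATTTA
Asph, circle: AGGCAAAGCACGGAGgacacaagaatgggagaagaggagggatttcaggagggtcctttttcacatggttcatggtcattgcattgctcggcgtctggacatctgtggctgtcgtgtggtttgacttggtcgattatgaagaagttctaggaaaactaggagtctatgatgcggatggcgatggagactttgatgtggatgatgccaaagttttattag

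The mRNA and lncRNA tables together summed to 12734764, 11865332 and 11556957 reads in BMM-, pOC- and mOC-ABs, and the circRNA table to 3413, 2380 and 4014 junction reads. On the scale of reads per 1000000 mRNA and lncRNA reads (RPM) this was 268, 201 and 347, and the ratios in G1, G2 and G3 were 0.748, 1.30 and 1.73. No library lists a junction with 1 read, so a listed 0 may stand for 0 or 1 read. The labels give total RNA, while the study's methods describe RNA purified on poly-T beads, which retain poly-A tails. A circRNA has no such tail, so every level of circular against linear RNA below depends on which of these was used for the circRNA table, and this is not given in the sources used here. Markers of macrophages summed to 1459, 707 and 802 RPM in BMM-, pOC- and mOC-ABs over 5 genes, with Mertk at 0 in BMM-ABs. Csf1r (775, 222 and 338) and Cd68 (521, 404 and 437) gave most of each sum and were lowest in pOC-ABs. Adgre1 (61.0, 26.8 and 10.6) and Itgam (101, 53.1 and 15.6) were lowest in mOC-ABs. The markers of osteoclasts summed to 29.8, 54.3 and 313 over 7 genes, with Calcr at 0 in every library and Oscar at 0 in BMM-ABs. Markers of B cells, T cells, neutrophils, erythroid cells, stromal cells and megakaryocytes each summed to at most 1.33 RPM in any library. Of these, Cd79a had 2, 1 and 0 reads in BMM-, pOC- and mOC-ABs, and Cd3d had 3, 4 and 0. Col1a2 had 2, 0 and 2, Cxcl12 had 3, 0 and 0, and Itga2b had 17, 9 and 5. The others, among them Ms4a1, Cd3e, Mpo, Col1a1 and Pf4, were at 0 in every library. The osteoclast markers were highest in mOC-ABs, as were the circular reads of Tns3 and Bbs9 below, and their part in those values was not tested. In such bulk samples fewer ABs of a kind and less RNA per AB cannot be told apart.

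The junctions of the 9 hosts held 480, 278 and 498 of the junction reads of BMM-, pOC- and mOC-ABs, which is 14.1% (Clopper-Pearson interval 12.9% to 15.3%), 11.7% (10.4% to 13.0%) and 12.4% (11.4% to 13.5%). Of the 30 junctions 16 had at least 10 reads, and the other 14 held 59 reads in all. A circRNA identifier had been given in the table to 11 of the 30, against 26.7% of all 1372 junctions. In all 3 libraries a read was listed for 14 of the 30, against 13.3% of all junctions. The hosts were chosen from junction reads, and the median junction of the table had 3 reads over the libraries, so these contrasts are a description.

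All 30 junctions had both ends on annotated exon ends of their host and on its strand, as did the ends of 93.1% of the 1284 exonic junctions of the table. Single exons were circularized in Pvt1 and Tcf20. The circle of Pvt1, the lncRNA gene beside Myc, was exon 2 of 10 in Pvt1-202 (318 bases). That of Tcf20, a transcriptional coregulator, was exon 2 of 5 (5772 bases, 99.4% of them coding), and its second junction added exon 3 (5866 bases). Uck2, the uridine-cytidine kinase of pyrimidine salvage, gave a circle of exons 2 to 4 of 7 (400 bases). In Asph-212, a coding transcript of the gene of aspartate beta-hydroxylase, it was exons 2 to 3 of 23. Tns3, a tensin of focal adhesions, gave exons 18 to 20 of 31 (360 bases). In Dennd1b, an exchange factor of the small GTPase Rab35, exons 4 to 9 of 22 were joined (486 bases). In Runx1, a transcription factor of blood cell development, the leading junction joined exons 3 to 5 of 8 (516 bases). By the annotation these last 5 circles held only coding exons. Junction reads show only the ends of a circle, so the exons between them and the lengths were taken from the annotated transcript.

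Bbs9 and Tulp4 differed from the others in their annotation. Both ends of the junction of Bbs9, a subunit of the BBSome that traffics cargo to the cilium, were found only in Bbs9-202, a transcript annotated as a retained intron, as its exons 4 and 5 of 6 (243 bases, none of them annotated as coding). That transcript itself had 0, 3 and 7 linear reads in BMM-, pOC- and mOC-ABs. The intron after its circle was 230 bases long, the shortest beside any leading junction. No transcript of Tulp4, a member of the tubby-like family, held both ends. Its donor was the end of exon 1 of the coding transcript Tulp4-201, and its acceptor lay in other, processed transcripts of the gene, among them Tulp4-210, at the other end of a stretch of 1946 bases.

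Of the 8 leading junctions with both ends in 1 transcript, 4 began at exon 2 (Pvt1, Tcf20, Uck2 and Asph), against 41.8% of exonic junctions. Their median flanking introns were 50914 bases before and 24662 bases after the circle, against 9217 and 7427 over the exonic junctions and 1738 over all introns of the transcripts used. The longest was the intron of 129851 bases before the circle of Runx1. The median spliced length was 380 bases, against 421 over the exonic junctions.

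Pvt1 had more junction reads than linear reads in every library. Its single junction had 64, 34 and 53 reads in BMM-, pOC- and mOC-ABs, against 40, 13 and 27 reads over its 3 listed linear transcripts. Per 1000 linear reads this was 1600 junction reads (interval 1061 to 2438), 2615 (1345 to 5400) and 1963 (1213 to 3246), and the 3 intervals overlap. Among the 102 hosts with at least 20 junction reads and linear reads in every library, Pvt1 had the fewest linear reads and the highest ratio of its leading junction to linear reads per 100 bases of transcript, 33.8 over the 3 libraries. The linear reads also moved between transcripts. Pvt1-201 had 32, 0 and 1 reads, and Pvt1-202 had 3, 12 and 23. Another 26 listed transcripts lie within the Pvt1 locus, 21 of them from NONCODE, and hold 367, 266 and 146 reads. With these counted as linear, Pvt1 had 157, 122 and 306 junction reads per 1000 linear reads.

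Tcf20 had the most junction reads of the hosts ranked, 110, 60 and 82 in BMM-, pOC- and mOC-ABs, beside 5458, 4012 and 5564 linear reads. Per 1000 linear reads the circular reads were 20.2 (16.5 to 24.3), 14.96 (11.4 to 19.3) and 14.7 (11.7 to 18.3). The leading junction had 63, 35 and 35 reads and the second 47, 23 and 44. The first thus held 57.3%, 58.3% and 42.7% of the junction reads, with overlapping intervals (47.5% to 66.7%, 44.9% to 70.9% and 31.8% to 54.1%). Of the linear reads 72.2%, 86.3% and 90.6% were on Tcf20-201.

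Uck2 had its circular reads lowest in pOC-ABs, and its linear reads were also lowest there by a smaller ratio. The single junction had 56, 13 and 41 reads in BMM-, pOC- and mOC-ABs, beside 5085, 4479 and 6574 linear reads. This gave 11.0 (8.31 to 14.3), 2.90 (1.54 to 4.97) and 6.24 (4.47 to 8.47) junction reads per 1000 linear reads. The interval of pOC-ABs lies below that of BMM-ABs, and overlaps that of mOC-ABs between 4.47 and 4.97. The circular over linear ratio in G3 nonetheless had an interval that left out 1 (1.13 to 4.38). Uck2 was chosen for many junction reads in a library, so its ratios are a description. At least 92.0% of its linear reads were on Uck2-202 in every library.

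Tulp4 had 55, 54 and 50 circular reads and 2204, 2076 and 2383 linear reads in BMM-, pOC- and mOC-ABs, or 24.95, 26.01 and 20.98 junction reads per 1000 linear reads. No ratio of its circular reads between libraries had an interval that left out 1. The leading junction had 50, 54 and 50 of these reads. A non-host transcript of 552 bases lies within the locus with 3365, 2722 and 3453 reads, which are not counted as linear Tulp4.

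Asph had a similar number of junction reads in the 3 libraries and fewer linear reads in pOC- and mOC-ABs. It had 77, 63 and 76 junction reads in BMM-, pOC- and mOC-ABs and 1891, 823 and 1064 linear reads. Per 1000 linear reads this was 40.7 (32.0 to 51.1), 76.5 (58.3 to 99.0) and 71.4 (55.8 to 90.2), and the intervals of pOC-ABs and mOC-ABs both lie above that of BMM-ABs. The junction of exons 2 to 3 had 55, 50 and 56 reads, and 6 further junctions shared 22, 13 and 20. Of these, 2, over exons 15 to 19 and 4 to 12, were read in every library (6, 8 and 7 reads, and 6, 5 and 5). Its linear reads were spread over 19 listed transcripts, with Asph-202 in front in BMM-ABs (630 reads), Asph-211 in pOC-ABs (236, against 1 in each other library) and Asph-212 in mOC-ABs (552).

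Tns3 had more reads of both kinds in mOC-ABs. Its circular reads were 42, 32 and 110 and its linear reads 5712, 4753 and 10101, or 7.35 (5.29 to 9.95), 6.73 (4.60 to 9.52) and 10.9 (8.94 to 13.1) junction reads per 1000 linear reads. The interval of mOC-ABs overlaps the other 2. The intervals of its circular over linear ratios nonetheless left out 1 in G2 (1.03 to 2.17) and G3 (1.08 to 2.48). Since many junction reads in a library chose Tns3, these ratios are a description. The leading junction had 30, 24 and 70 reads. Next came exons 14 to 16 with 7, 8 and 18 reads and exons 11 to 16, which end at the same donor, with 3, 0 and 16. At least 98.2% of the linear reads were on Tns3-201 in every library.

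Bbs9 had 9, 12 and 53 junction reads in BMM-, pOC- and mOC-ABs, all on its single junction, beside 205, 100 and 137 linear reads. This was 43.9 (19.8 to 84.99), 120 (59.998 to 219) and 387 (276 to 535) junction reads per 1000 linear reads. The interval of mOC-ABs lies above both others, which overlap. The circular over linear ratio in G1 nonetheless had an interval that left out 1 (1.02 to 7.58). Its leading linear transcript was Bbs9-201 in BMM-ABs (105 reads) and Bbs9-210 in pOC-ABs (82) and mOC-ABs (76), and both hold the acceptor of the circle and not its donor.

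Runx1 had no junction in common between libraries. Exons 3 to 5 gave 30 reads in BMM-ABs and 0 in the others, exons 5 to 6 gave 7, 0 and 0, and exons 3 to 4 gave 0, 0 and 5. In sum these were 37, 0 and 5 reads beside 1788, 777 and 615 linear reads, or 20.7 junction reads per 1000 linear reads in BMM-ABs (14.5 to 28.6) and 8.13 in mOC-ABs (2.63 to 19.1). The 0 in pOC-ABs allows up to 3 of 2380 junction reads (0.126%). Linear reads of Runx1 fell on Runx1-201, which holds both ends of the leading junction (731, 427 and 279), and on Runx1-203, which holds only the donor (610, 228 and 224).

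Dennd1b divided its reads among 5 junctions. It had 30, 10 and 28 circular reads in BMM-, pOC- and mOC-ABs, beside 658, 602 and 790 linear reads. Junction reads per 1000 linear reads were 45.6 (30.5 to 65.7), 16.6 (7.93 to 30.8) and 35.4 (23.4 to 51.6). The junction of exons 4 to 9 had 16, 4 and 7 reads, and the one of exons 6 to 9, with the same donor, had 5, 2 and 9. Exons 10 to 14 gave 4, 4 and 6. The leading junction held 16 of 30 reads (34.3% to 71.7%), 4 of 10 reads (12.2% to 73.8%) and 7 of 28 reads (10.7% to 44.9%), and these intervals overlap. In mOC-ABs the junction of exons 6 to 9 had more reads than it.

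**Figure D1:**
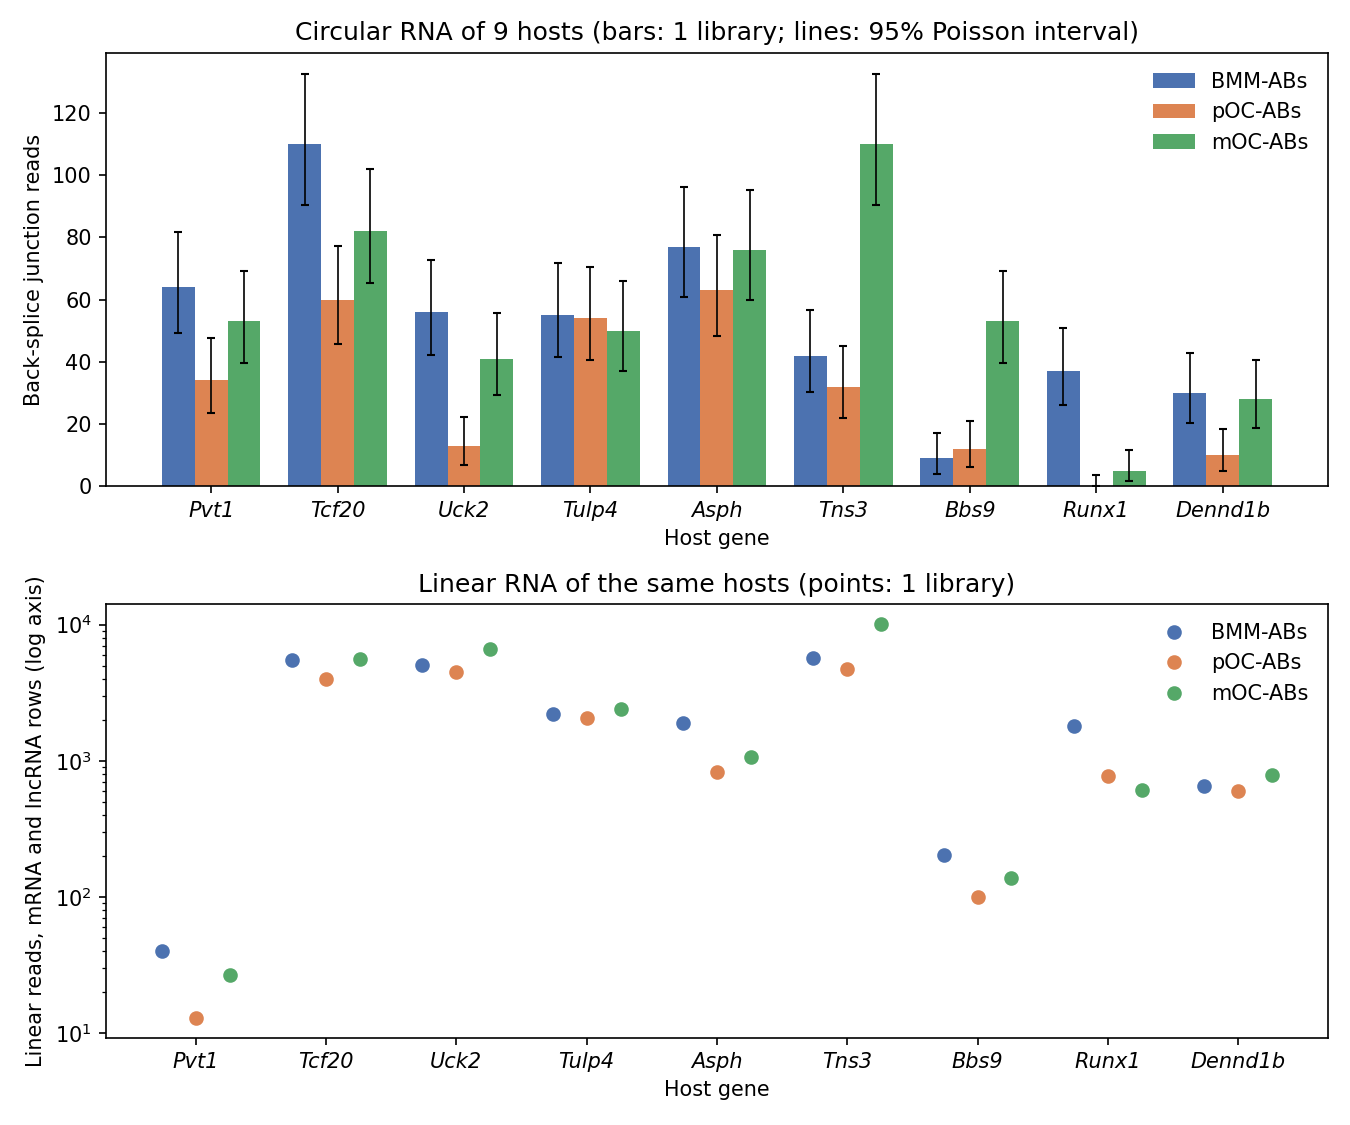
Back-splice junction reads (upper panel, linear axis, with exact Poisson intervals) and linear reads (lower panel, log axis) of the 9 hosts in BMM-, pOC- and mOC-ABs, 1 library each. Tns3 and Bbs9 had their most junction reads in mOC-ABs (110 and 53), and Runx1 had 37 in BMM-ABs and 0 in pOC-ABs.

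**Figure D2:**
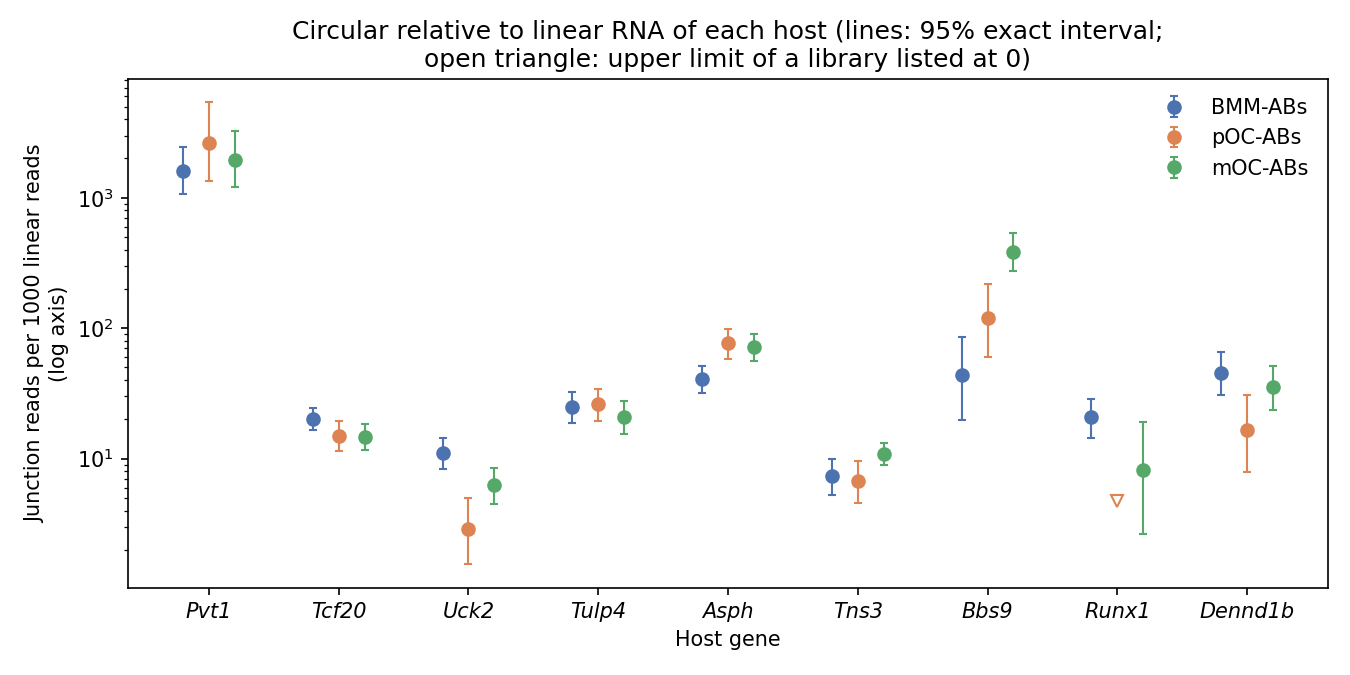
Junction reads per 1000 linear reads of each host (log axis) with exact intervals, and an open triangle at the upper limit where the library lists 0. Pvt1 lies above 1000 in each library, and Bbs9 goes from 43.9 in BMM-ABs to 387 in mOC-ABs.

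**Figure D3:**
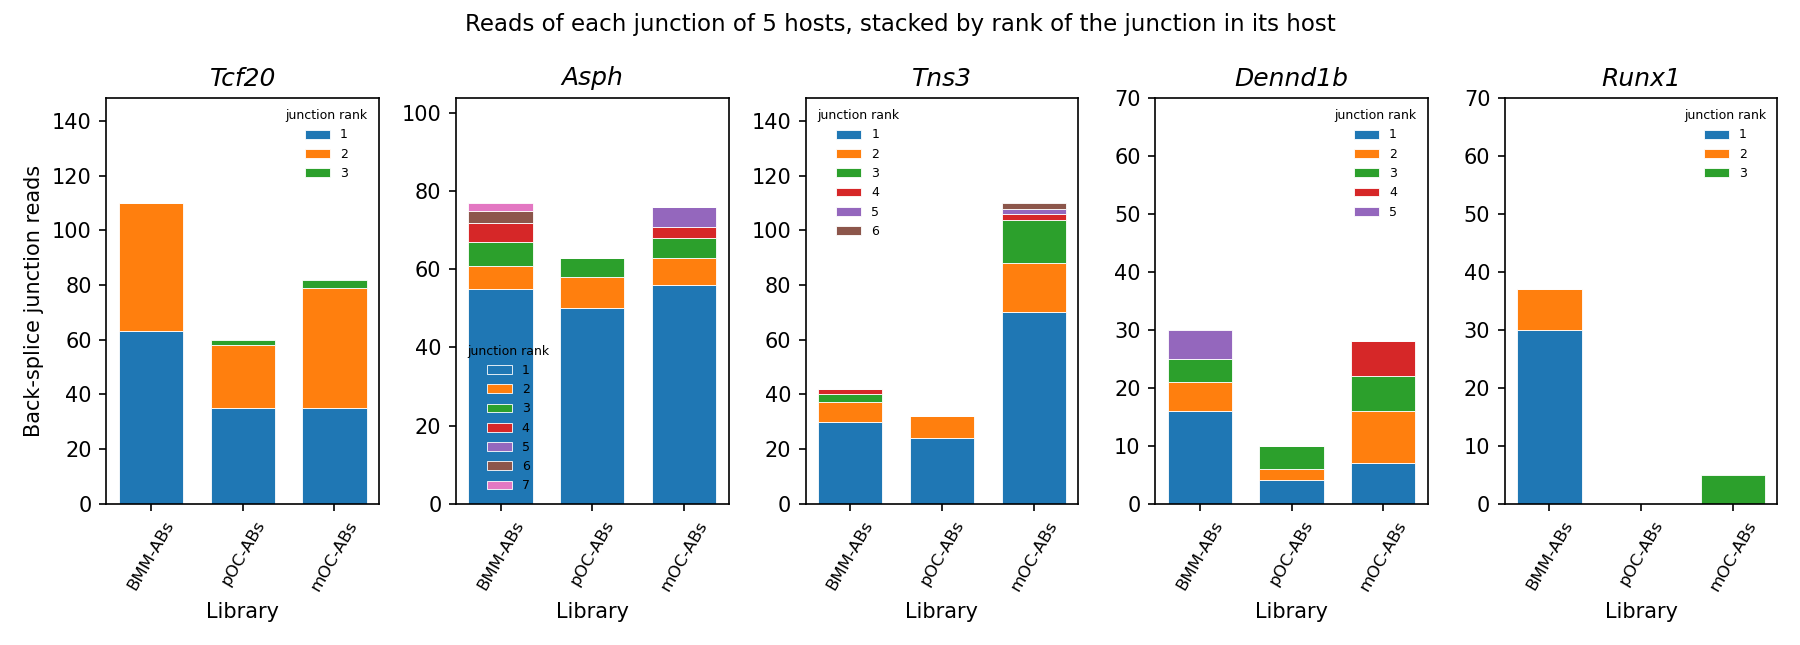
Reads of each junction of the 5 hosts named, stacked by the rank of the junction within its host, in the 3 libraries. The junction in front in Tcf20 and Dennd1b was not the same in every library, and the bars of Runx1 share no junction.

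For differences between libraries, junction reads and linear reads were both taken as RPM of the library, and a host was counted as higher or lower past a ratio of 2 or 0.5. In G1, 3 of 9 hosts were past this limit for circular RNA, all lower in pOC-ABs, namely Uck2, Runx1 and Dennd1b. Of the 103 hosts with at least 20 junction reads 40.8% were past it. Bbs9, Runx1 and Dennd1b were chosen for a difference between libraries, and the others for many reads in a library, which can also favour a difference. The circular counts in G1, G2 and G3 are therefore a description. Uck2 had a log2 ratio of -2.00 (interval -3.00 to -1.12) and Dennd1b of -1.48 (-2.68 to -0.41). Runx1, with 0 reads against 37, was 11.5-fold lower when the 0 is set to 3 reads. The exact interval of its ratio, which takes the 0 as no read, ended at 0.113. For linear RNA, 3 of 9 hosts were past the limit in G1, Pvt1 at -1.52 (-2.55 to -0.59), Asph at -1.10 (-1.22 to -0.98) and Runx1 at -1.10 (-1.22 to -0.98), against 15.4% of 13890 genes with at least 20 reads. With median-of-ratios size factors, which move every log2 ratio by 0.20 in G1 and 0.17 in G2, Asph and Runx1 stood at -0.90 in G1 and only Pvt1 was past it. With all transcripts within its locus, Pvt1 stood at -0.44. The linear log2 ratios of Uck2 (-0.08), Tns3 (-0.16) and Dennd1b (-0.03) turned positive under those factors.

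In G2, 3 of 9 hosts were past the limit for circular RNA, against 28.2% of the 103 hosts. Bbs9 was higher in mOC-ABs with a log2 ratio of 2.70 (1.67 to 3.90) and Tns3 with 1.53 (1.004 to 2.08), and Runx1 was lower with -2.75 (-4.45 to -1.40). Dennd1b stood at 0.04, and at -1.05 with only its leading junction. For linear RNA only Runx1 was, at -1.40 (-1.53 to -1.27), against 16.9% of genes, and Tns3 stood at 0.96 (0.92 to 1.01). In G3, 4 of 9 hosts were past it for circular RNA, all higher in mOC-ABs, against 44.7% of the 103 hosts. They were Bbs9 at 2.18 (1.26 to 3.22), Tns3 at 1.82 (1.24 to 2.44), Uck2 at 1.70 (0.77 to 2.72) and Dennd1b at 1.52 (0.44 to 2.73). All junctions of the table together were 1.73-fold higher in G3. With the sum of all junction reads as the scale 2 hosts, Tns3 and Bbs9, were past the limit. Pvt1, Tcf20, Asph and, with its 0 set to 3 reads, Runx1 (-0.02) turned to values below 0. For linear RNA 2 of 9 hosts were past it in G3, Tns3 at 1.13 (1.08 to 1.18) and Pvt1 at 1.09 (0.09 to 2.17), against 12.4% of genes. The value of Pvt1 rests on 27 against 13 reads, and with all transcripts within its locus it reversed to -0.65.

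The median log2 ratio over the 9 hosts in G1, G2 and G3 was -0.77, 0.0025 and 0.77 for circular RNA, against -0.46, 0.31 and 0.82 over the 103 hosts. The G3 median of the 9 is the value of Runx1, whose 0 was set to 3 reads. With 0.5 reads added to each sum in place of that floor, the medians in G3 were 1.48 over the 9 hosts and 0.82 over the 103. For linear RNA it was -0.34, 0.17 and 0.49, against -0.22, -0.18 and 0.04 over all genes. The log2 ratios of Tulp4 for circular RNA were 0.08, 0.0025 and -0.07, with intervals of -0.49 to 0.64, -0.58 to 0.58 and -0.66 to 0.51.

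**Figure D4:**
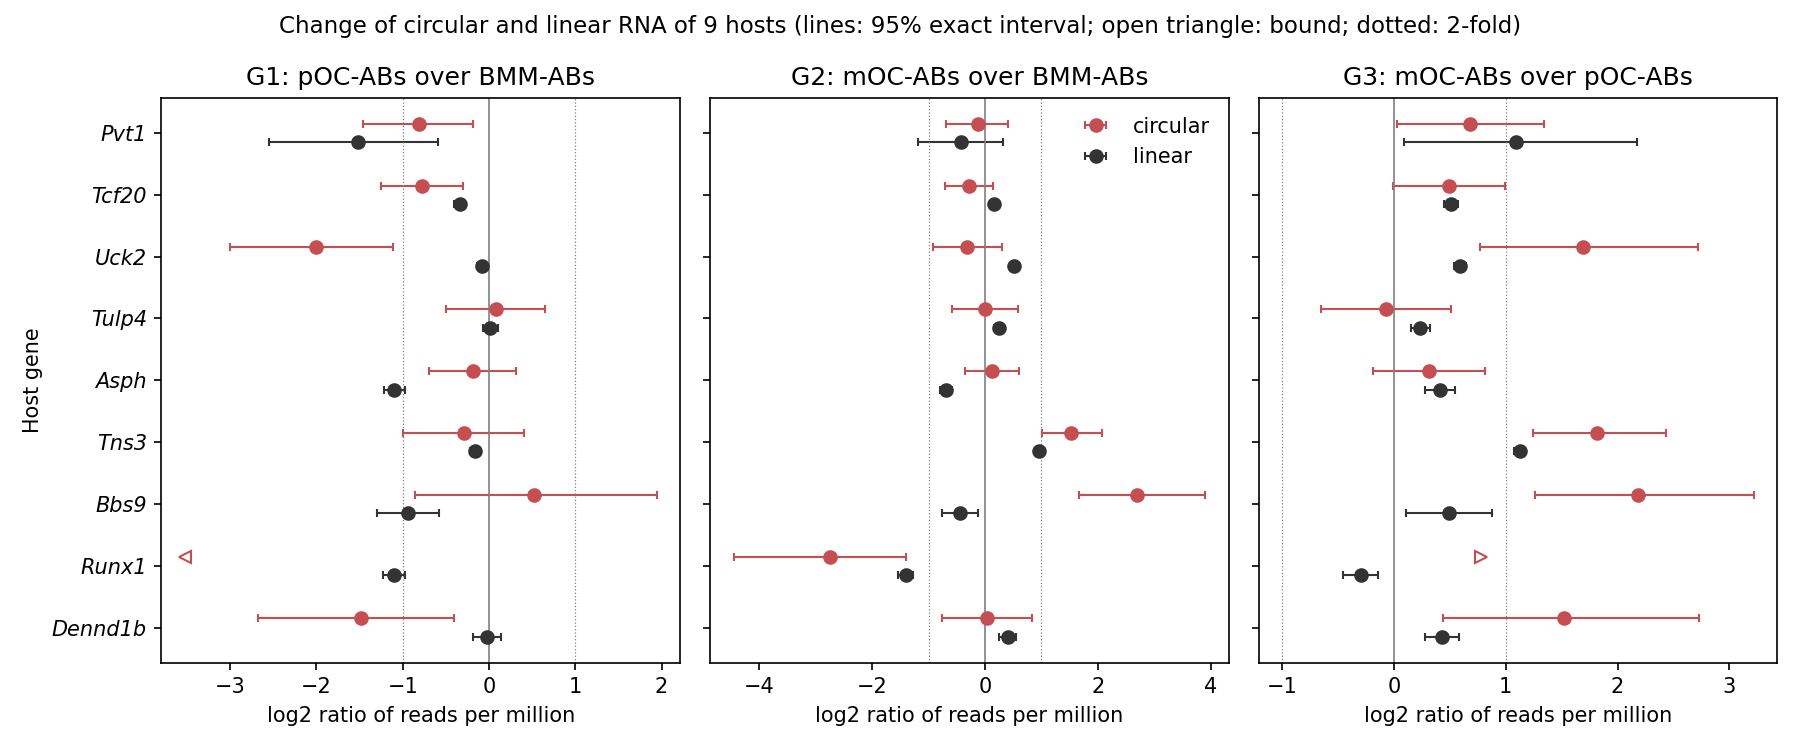
Log2 ratio of RPM (reads per 1000000 mRNA and lncRNA reads) for circular RNA (red) and linear RNA (black) of each host in G1, G2 and G3, with exact intervals, dotted lines at a 2-fold difference and open triangles for Runx1 with its 0 set to 3 reads (titled bound). The red and black intervals of Uck2 lie apart in G1 (-2.00 and -0.08), as do those of Bbs9 in G2 (2.70 and -0.44).

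The change of circular relative to linear RNA does not depend on the scale of the libraries. It was past 2-fold in 4 of 9 hosts in G1, against 40.2% of the 102 hosts with linear reads in every library, in 2 of 9 in G2 against 30.4%, and in 4 of 9 in G3 against 36.3%. Shares this near the background say nothing particular about the 9 hosts as a set. The junction reads that chose the hosts also enter these ratios, so the ratios and intervals below are a description. Bbs9 had more circular relative to linear reads in each comparison, with ratios of 2.73 (1.02 to 7.58), 8.81 (4.11 to 20.9) and 3.22 (1.59 to 6.96) in G1, G2 and G3. Its linear reads were fewer in mOC-ABs than in BMM-ABs, while its junction reads were more.

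For Uck2 the ratios were 0.264 (0.132 to 0.489), 0.566 (0.368 to 0.864) and 2.15 (1.13 to 4.38). Dennd1b stood at 0.364 (0.158 to 0.774) in G1. In G3 it stood at 2.13, where the interval of 0.996 to 4.96 includes 1. Asph stood at 1.88 (1.31 to 2.69) in G1 and 1.75 (1.25 to 2.46) in G2, both short of 2-fold. Tns3 stood at 1.48 in G2 (1.03 to 2.17) and 1.62 in G3 (1.08 to 2.48), with circular and linear reads both higher in mOC-ABs. Tcf20 stood at 0.731 in G2 (0.541 to 0.985).

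Runx1 was 5.36-fold lower in G1 with the 0 of pOC-ABs set to 3 reads. The exact interval of its ratio, which takes the 0 as no read, ended at 0.242. In G2 it stood at 0.393, with an interval of 0.120 to 1.01 that includes 1. In G3 it had 5 junction reads against 0, which gave a ratio of 2.11 with the 0 set to 3 reads and an exact interval that began at 1.15. That interval takes the 0 as no read, and with an unlisted read it would begin lower. For Pvt1 and Tulp4 the intervals included 1 in every comparison. Those of Pvt1 were wide (0.732 to 3.79, 0.640 to 2.37 and 0.311 to 1.76), with at most 40 linear reads in a library. With only the leading junction, Asph passed 2-fold in G1 and Dennd1b did in G2 at a log2 ratio of -1.46, while Runx1 and Dennd1b no longer counted in G3. Pvt1 passed it in G1 and G2 with linear reads per transcript length, and in G3, at a log2 ratio of 1.33, with all transcripts within its locus.

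A junction read needs the circle to cover 1 position, while linear reads gather along the whole transcript. Levels were therefore compared as reads of the leading junction against linear reads per 100 bases of transcript, a span chosen as a rough width in which a read can cross a junction. Junction reads chose the 9 hosts, so a high level among them is a description. Of the 102 hosts, 15 had their leading junction above the linear level over the 3 libraries together. In each library 4 of 9 hosts had their junction above it. Pvt1, Tulp4 and Bbs9 did so in all of them, with Dennd1b in BMM-ABs and Asph in pOC-ABs and mOC-ABs. The ratio of Pvt1 was 22.8, 68.6 and 45.7 in BMM-, pOC- and mOC-ABs, and that of Bbs9 was 1.49, 3.85 and 11.9. Tulp4 stood at 1.30, 1.41 and 1.27 and Asph at 0.909, 1.72 and 1.68. Dennd1b stood at 1.66, 0.321 and 0.563, and Tcf20, Uck2, Tns3 and Runx1 stayed between 0 and 0.853. With all transcripts within the locus counted as linear, Pvt1 stood at 2.77, 1.17 and 3.21, Bbs9 at 1.40, 2.91 and 10.4 and Tulp4 at 0.0713, 0.0942 and 0.0693, and 3 hosts in each library had their junction above the linear level.

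Over the 3 libraries together the ratio ranked Pvt1 first of the 102 hosts (33.8), Bbs9 at 3 (5.43), Tulp4 at 11 (1.33) and Asph at 12 (1.31), among 15 hosts above 1. The rank of Pvt1 rests on 80 linear reads, and the transcripts within the locus were not counted for any host in it. Dennd1b came at 25, Tcf20 at 32, Tns3 at 45, Runx1 at 59 and Uck2 at 70, and the median host had 0.363. Uck2, Tns3 and Tcf20 were thus among the hosts with the most junction reads (110, 184 and 252) and also had linear reads at ranks 4, 2 and 5 of 102. Reads that lie wholly inside a circle count as linear reads, so each linear value holds an unknown circular share. With 200 bases as the span, 1 host stood above the linear level in BMM-ABs and 2 each in pOC-ABs and mOC-ABs.

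**Figure D5:**
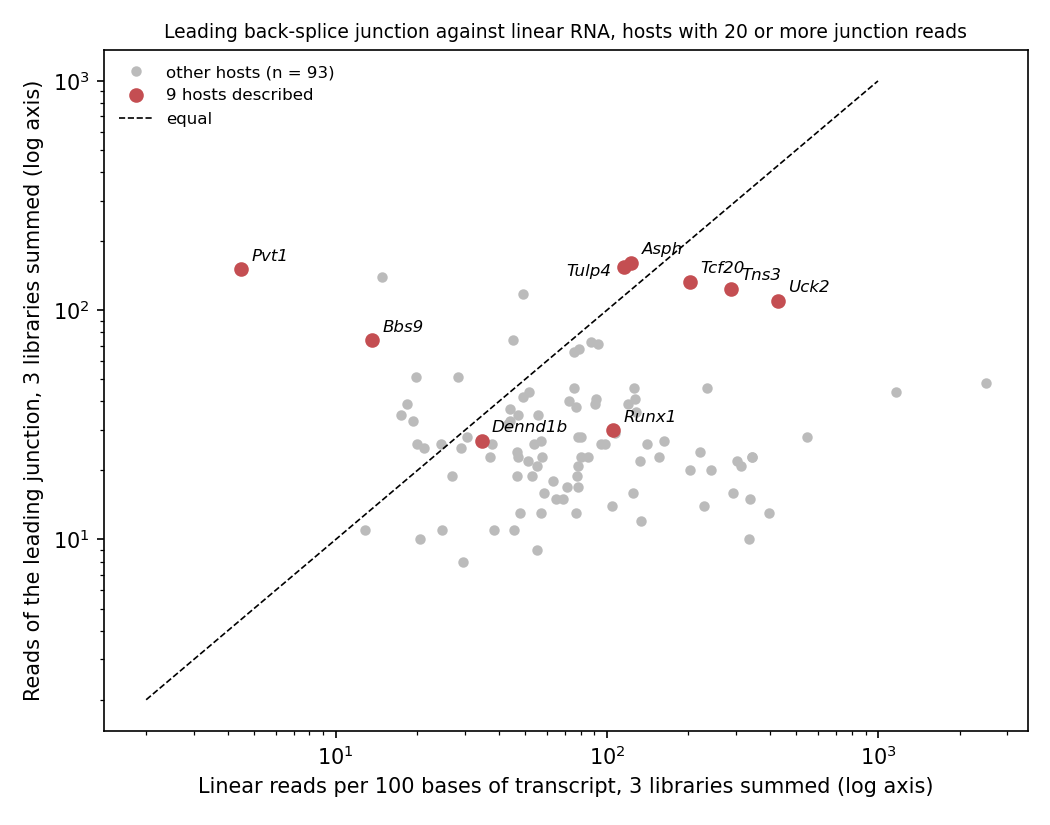
Reads of the leading junction against linear reads per 100 bases of transcript, both summed over the 3 libraries on log axes, for the 9 hosts (red) and 93 other hosts with at least 20 junction reads (grey). Points above the dashed line have more reads of the leading junction than linear reads per 100 bases. Among the 9, Pvt1 (151 against 4.46) and Bbs9 (74 against 13.6) lie farthest above it.

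Genes that act on the making and decay of circRNAs were read in the linear tables from a list of 20, and all 20 had reads. None was past 2-fold in G1, G2 or G3, where 15.4%, 16.9% and 12.4% of genes with at least 20 reads were. Those shares include genes with few reads. Of the 11100 genes with at least 100 reads, 1082, 1189 and 679 were past it. Qki, an RNA-binding protein that promotes back-splicing, had 1408, 1176 and 1075 reads in BMM-, pOC- and mOC-ABs, a ratio of 0.896 in G1 (0.829 to 0.969). Adar, which edits and loosens paired inverted repeats, had 1945, 1122 and 1294 reads, a ratio of 0.619 in G1 (0.575 to 0.667) and 0.733 in G2 (0.683 to 0.787). Dhx9, a helicase that unwinds such repeats, had 2448, 2286 and 2760 reads and a ratio of 1.24 in G2 (1.18 to 1.31). The median log2 ratio of the list in G1, G2 and G3 was -0.19, -0.15 and 0.13.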

How the data were processed

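RNA of ABs was sequenced in 1 library per group. The authors deposited tables with the read count and FPKM of each mRNA and lncRNA transcript, and with the junction read count and SRPBM (a signal value, here found to be junction reads over a constant of the library) of each circRNA. The deposited FPKM of mRNAs and of lncRNAs were scaled to different totals and served only as an alternative. The submitters' processing notes name FastQC, HISAT2, StringTie and GRCm38, and the circRNA caller and the counting tool are not given in the sources used here. The circRNA columns are headed by hours only, and these were matched to the RANKL treatment times of the labels. All per-sample columns were used.

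The 9 hosts and the gene lists were chosen with earlier results of these data known. Junction reads were summed per host, and the counts of all transcripts that GENCODE M21 assigns to the gene were summed as linear reads. Counts were divided by the mRNA and lncRNA total. Ratios carry Clopper-Pearson 95% intervals, circular over linear ratios exact conditional odds ratio intervals, sums exact Poisson intervals, and a 0 was set to 3 reads for bounds. That floor of 3 reads is 2.36e-05%, 2.53e-05% and 2.60e-05% of the mRNA and lncRNA reads of BMM-, pOC- and mOC-ABs and 0.0879%, 0.126% and 0.0747% of their junction reads. Reads carry no molecular identifiers, so intervals cover counting error only. Without replicates no test was run. The intervals were tested on simulated counts. Every host is named, with junctions of at least 10 reads by their reads. Of the genes of circRNA making and decay, Qki, Adar and Dhx9 and any past 2-fold are named. Newer symbols were matched through RefSeq synonyms (GRCm38.p6). Alternatives covered scaling, the junctions and transcripts summed, the span in bases and count minimums. Splice-site letters in introns were not read. Python 3.11.15, scipy 1.17.1, pandas 2.3.3 and numpy 2.4.6 were used.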

Additional observations from a re-analysis of the deposited data

How the results depend on the processing

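No paired analysis was possible because each group has 1 library. The cause of the following differences was not tested unless the alternative sets it. For circular RNA in G3, 2 of the 9 hosts in place of 4 were past 2-fold with the sum of all junction reads as the scale. For linear RNA in G1 the number went from 3 to 1 with median-of-ratios size factors and to 1 without the 10 most abundant lncRNAs in the total. In G2 it went from 1 to 2 with either, with all transcripts within the locus and with the deposited FPKM, and in G3 from 2 to 1 with the last pair. The linear log2 ratio of Pvt1 in G3 reversed from 1.09 to -0.65 with all transcripts within its locus. For circular over linear RNA in G3, 2 hosts in place of 4 were past 2-fold with only the leading junction. With a span of 200 bases 1, 2 and 2 hosts in place of 4 had their junction above the linear level in BMM-, pOC- and mOC-ABs. In G2, 140 of the 1162 junctions with reads in either library were past 2-fold. Of the 236 junctions with at least 10 reads over the 3 libraries, 92 were. With at least 100 reads in place of 20, 1082, 1189 and 679 of 11100 genes were past 2-fold in G1, G2 and G3. With at least 20 reads they were 2135, 2351 and 1718 of 13890. The other numbers of hosts past 2-fold stayed within 1.5 times of those given, and the 3 hosts lower for circular RNA in G1 were the same under all 6 alternatives. At most 13 reads lie behind the lowest counts of Runx1, Bbs9, Dennd1b and Uck2, which limits their precision.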

Other observations

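Of 10 other genes whose circRNAs are often studied, 8 had a junction in the table, each with at most 11 junction reads in a library. Hipk3 had 7, 4 and 11 junction reads in BMM-, pOC- and mOC-ABs, Rsrc1 9, 7 and 10, Zfp609 6, 3 and 6, and Fbxw7 7, 5 and 4 over 2 junctions. Foxo3 was listed with 4, 0 and 0 reads, Cdyl with 2, 0 and 6, Camsap1 with 0, 0 and 4, and Mbnl1 with 0, 3 and 0. Smarca5 and Slc8a1 were listed with no junction. Past 2-fold were 0 of these in G1, 1 in G2 and 3 in G3, where 40.8%, 28.2% and 44.7% of the hosts with at least 20 junction reads were, and every interval of a ratio between counts above 0 included 1.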
